A study of Mus musculus with 12 samples.

Results

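Transcripts of the GABA-B receptor (Gabbr1 and Gabbr2), the glycine receptor (Glra1, Glra2, Glra3 and Glrb) and the scaffold protein gephyrin (Gphn) were examined in the cortex of ethanol-drinking and water-drinking mice. These 7 genes were taken by symbol from a table of 33024 gene symbols. All 7 were present, and 6 of them were among the 16059 genes with enough counts to be tested, with Glra1 left out. The tissue came from 12 wildtype C57BL/6 mice of the abstinence arm of the study. The 5 EtOH mice had been offered 20% (v/v) ethanol beside water for 12 h each night from 30 days of age, over 35 days, in a two-bottle drinking-in-the-dark scheme. They then went without ethanol for 14 days and took behavioural tests before the brains were collected after saline perfusion. The 7 Control mice had water in both bottles and went through the same schedule, and no group carried a transgene or another agent. Both groups were therefore compared after a period of abstinence, and no sample was taken during drinking.

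GABA-B receptors are G protein-coupled receptors that work as a pair of subunits. The Gabbr1 product binds GABA, and the Gabbr2 product carries the receptor to the membrane and couples it to inhibitory G proteins, which close calcium channels at nerve terminals and open potassium channels on dendrites. Glycine receptors are chloride channels assembled from alpha subunits (Glra genes), which bind glycine, and the beta subunit (Glrb), which ties the channel to gephyrin below the membrane. Adult spinal cord and brainstem rely mainly on the alpha subunit of Glra1, whereas the alpha subunits of Glra2 and Glra3 are the ones usually found in forebrain. Gephyrin also anchors GABA-A receptors and, as an enzyme, completes the molybdenum cofactor.

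Total counts ranged from 31768079 to 40690226 in the Control mice (median 32166770) and from 32048725 to 42183031 in the EtOH mice (median 32947639). The labels number the samples without naming animals, so that the p-values given here measure the spread between these samples. Lists of defining genes of neighbouring regions and cell types also differed between the groups. Their values are given as CPM, in which counts are divided by the normalized library size. The striatum list (15 genes) summed to between 1235 and 2823 CPM in the Control mice and between 317 and 387 CPM in the EtOH mice, and 15 of its 15 genes were lower. The hippocampus list summed to between 30.4 and 37.8 CPM in the Control mice and between 139 and 185 CPM in the EtOH mice, with 8 of 9 genes higher. The thalamus list ranged from 49.3 to 55.0 CPM in the Control mice and from 65.2 to 90.2 CPM in the EtOH mice, with 2 of 6 genes higher. The olfactory bulb list ranged from 13.6 to 73.9 CPM and from 8.66 to 9.57 CPM, with 4 of 4 genes lower. The inhibitory interneuron list ranged from 1206 to 1523 CPM in the Control mice and from 960.0 to 1066 CPM in the EtOH mice, with 4 of 10 genes lower. The oligodendrocyte list ranged from 4427 to 5878 CPM in the Control mice and from 2968 to 5306 CPM in the EtOH mice, with 2 of 8 genes lower. The microglia list ranged from 251 to 275 CPM and from 224 to 247 CPM, with 0 of 6 genes called. The astrocyte list ranged from 2895 to 3416 CPM and from 3247 to 3770 CPM, with 1 of 8 genes higher. The choroid plexus list ranged from 7.44 to 20.8 CPM and from 11.5 to 985 CPM, with 3 of 4 tested genes higher. Of the pan-neuronal list, 0 of 5 genes were called, whilst at any fold 1 was higher and 3 were lower, and the log2 CPM averaged over its genes was 9.81 ± 0.05 (SD, n = 7) in Control and 9.70 ± 0.03 (SD, n = 5) in EtOH mice, which did not overlap. The label of cortex was borne out by the excitatory neuron list, at 2301 to 2788 CPM in the Control mice and 2217 to 2778 CPM in the EtOH mice, with 1 of 8 genes called, Fezf2, a deep-layer gene that was higher (log2 fold change 0.60, edgeR adjusted p = 0.0001). At any fold, 3 of its genes were higher and 1 was lower, and Slc17a7, the vesicular glutamate transporter of cortical neurons, differed by -0.04 on the log2 scale (edgeR adjusted p = 0.742). Genes of the hindbrain and spinal cord list were nearly absent, with Hoxa2, Hoxb2, Hoxa5 and Hoxb5 at 0 in all 12 mice. The part of these lists in the differences between the groups, for the 7 genes and their partners, was not tested. In bulk tissue, a differing amount of a neighbouring region, fewer cells of a type and less RNA per cell cannot be told apart.

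**Figure D1:**
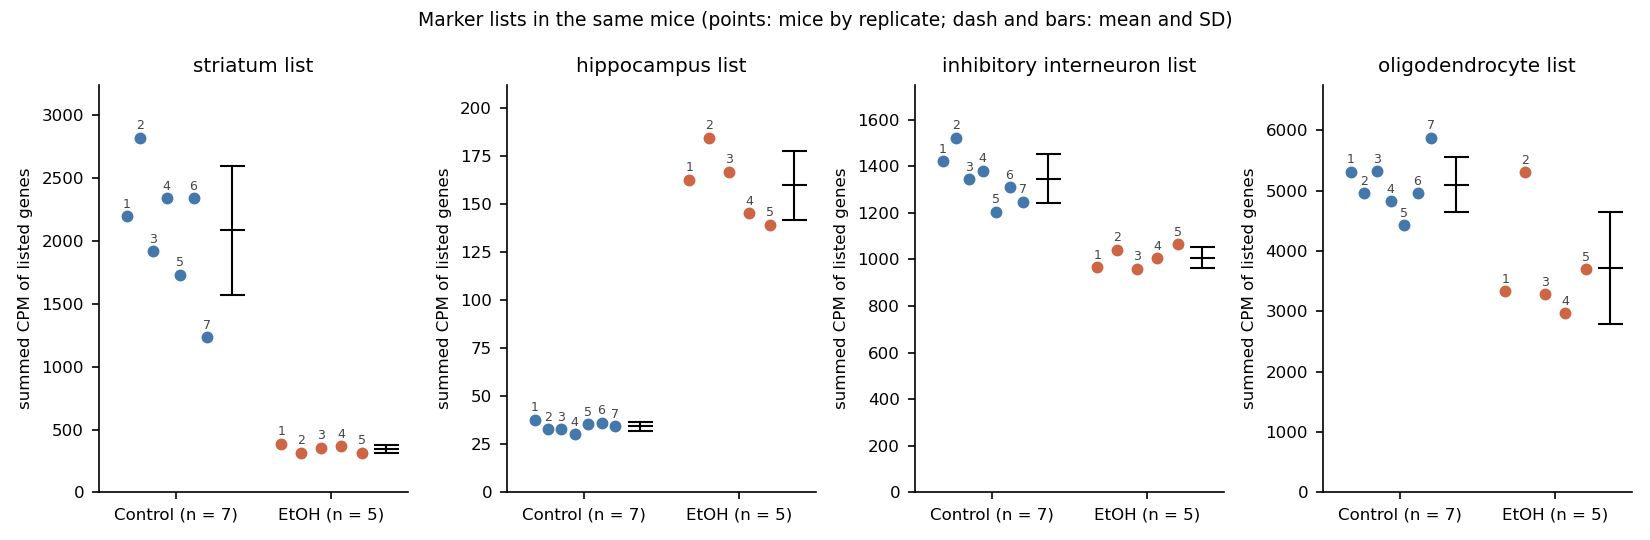
Summed CPM of the striatum, hippocampus, inhibitory interneuron and oligodendrocyte marker lists (y axes, starting at 0) in each Control (n = 7) and EtOH (n = 5) mouse, numbered by replicate, with mean and SD. The striatum, hippocampus and inhibitory interneuron sums do not overlap between the groups, and EtOH mouse 2 lies among the Control mice for the oligodendrocyte list only.

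Of the 6 genes tested, 1 was higher in the EtOH mice (Glra3) and 0 were lower, where a call needed an adjusted p under 0.05 together with a log2 difference of more than 0.5. By the same rule, 8.29% of all genes tested were called, 4.2% higher and 4.09% lower. Without the fold minimum, Glra3 was higher and Glrb was lower, whereas 23.7% of all genes passed. The median log2 fold change of the 6 genes was -0.05, beside a median of 0.00 over all genes tested, and 2 of the 6 values were positive. For 0 of the 7 genes did the values of the groups stand fully apart, which 9.81% of all genes tested did (4.84% higher and 4.96% lower).

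The levels of the 7 genes spanned a wide range. Between genes they were compared as CPM per kilobase of annotated exon. Gabbr1 was highest at 96.6 ± 3.70 (SD, n = 7) in the Control mice and 88.7 ± 2.71 (SD, n = 5) in the EtOH mice. Gabbr2 followed at 50.2 ± 6.00 and 54.4 ± 2.28, and Glrb at 22.1 ± 0.547 and 19.96 ± 1.25. Gphn had 5.51 ± 0.328 and 5.29 ± 0.300 CPM per kilobase, Glra2 had 2.90 ± 0.478 and 2.83 ± 0.572, and Glra3 had 0.896 ± 0.160 and 1.67 ± 0.406. Glra1 was lowest at 0.1104 ± 0.0456 and 0.0620 ± 0.0320. This order was the same in both groups, and neighbours in it did not overlap within either group. The beta subunit was thus far above any alpha subunit, and both GABA-B subunits lay above all glycine receptor genes.

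**Figure D2:**
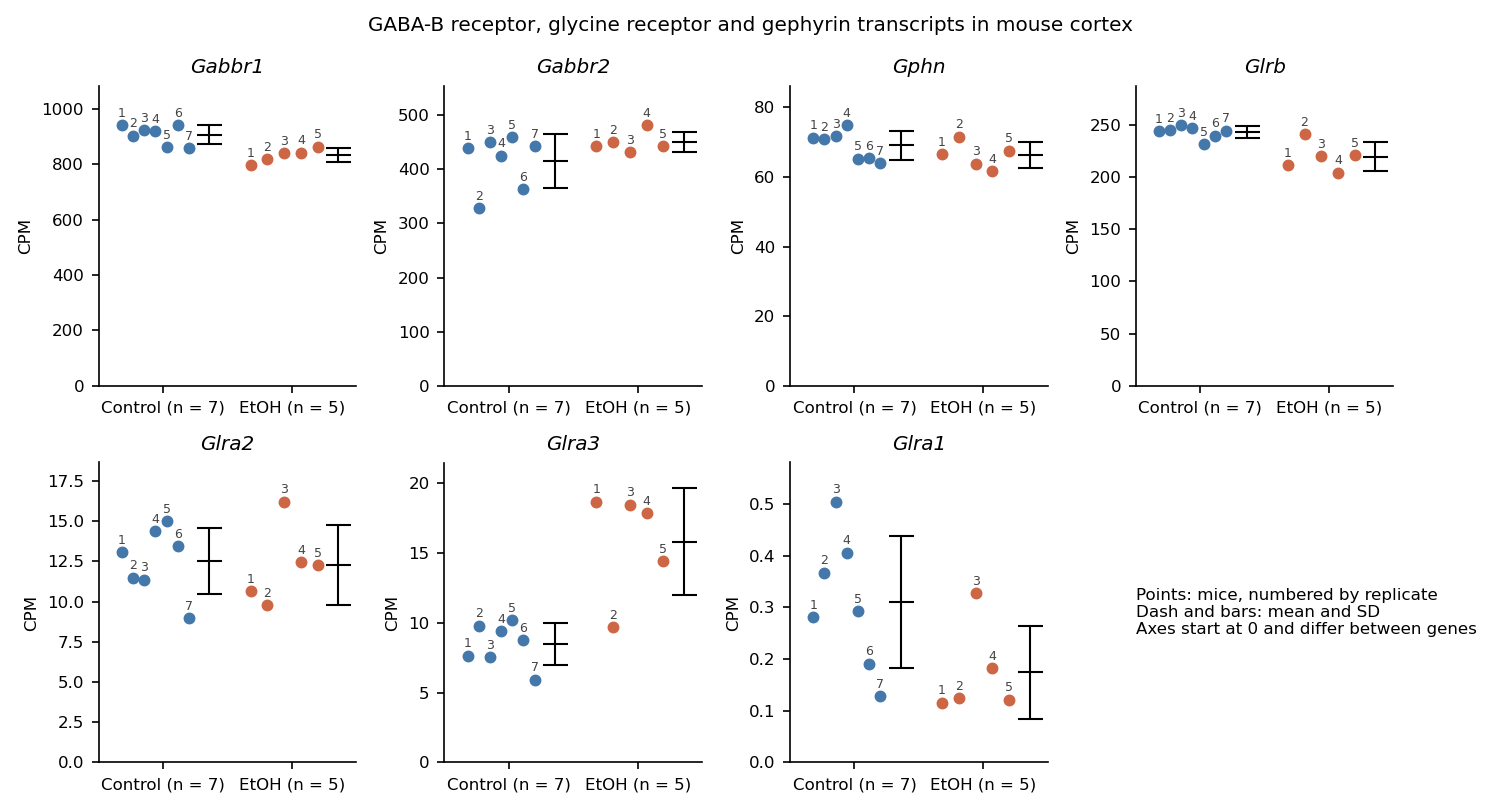
CPM of the 7 genes (y axes, each starting at 0 and with its own scale) in each Control (n = 7) and EtOH (n = 5) mouse, numbered by replicate, with mean and SD. For Glra3, 4 of the 5 EtOH mice lie above every Control mouse, and EtOH mouse 2, at 9.67 CPM, lies among them.

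Among the GABA-B subunits, neither gene passed the test, and their differences had opposite signs. Gabbr1 (chromosome 17, 37356703 to 37387265 of GRCm39, plus strand) had a lowest value of 857, a median of 919 and a highest value of 940 CPM in the Control mice. In the EtOH mice it had 796, 818, 839, 841 and 862 CPM. The lower values were in the EtOH mice, 4 of which lay below every Control mouse, whilst the fifth overlapped Control mice 5 and 7. The log2 fold change was -0.12 (standard error 0.04, 95% interval -0.21 to -0.04, edgeR adjusted p = 0.0527). This lies next to the threshold, and the adjusted p was 0.0178 with DESeq2 and 0.0449 with limma voom. Counts per gene do not separate the long and short isoforms of the Gabbr1 product, which differ in their N-terminal part.

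Gabbr2 (chromosome 4, 46662244 to 46991971, minus strand) had a lowest value of 328, a median of 439 and a highest value of 459 CPM in the Control mice. In the EtOH mice it had 443, 450.0, 432, 481 and 443 CPM. The EtOH values sat within the upper part of the Control range except for EtOH mouse 4, which was above it, and the low values were those of Control mice 2 and 6, at 328 and 363 CPM. The log2 fold change was 0.12 (standard error 0.07, 95% interval -0.03 to 0.26, edgeR adjusted p = 0.276). Without Control mouse 2 it was 0.07 (edgeR adjusted p = 0.469).

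Since both subunits are needed in 1 receptor, their ratio within each mouse was compared, which does not depend on the scaling of the library. Per kilobase, Gabbr1 transcripts outnumbered those of Gabbr2 by a ratio of 1.94 in the Control mice (range 1.65 to 2.43) and 1.63 in the EtOH mice (range 1.54 to 1.72). The mean log2 ratio was 0.95 ± 0.21 (SD, n = 7) and 0.71 ± 0.07 (SD, n = 5), so that the EtOH mice differed by -0.25 (two-sided exact permutation over mice, p = 0.0253, or 0.0379 when adjusted over 3 ratios). Here 3 of the 5 EtOH mice lay below every Control mouse, and the widest departures were the high ratios of Control mice 2 and 6. The difference missed the threshold when any 1 of the 5 EtOH mice was left out, with adjusted p from 0.0545 to 0.105.

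The striatum list varied among the Control mice themselves, and the level of Gabbr2 was set against it there, both as log2 CPM, with the list taken as the mean over its genes. Over the 7 Control mice, Gabbr2 had a Pearson r of -0.67 with the list (exact permutation p = 0.0919) and a Spearman rho of -0.89 (p = 0.0123). Adjusted over the 6 genes examined, these were 0.184 and 0.0738, and r was -0.87 without Control mice 5 and 7, the 2 farthest from the median of that list mean. Gabbr1 had an r of 0.71 (exact permutation p = 0.0744, adjusted 0.184) and a rho of 0.54 (p = 0.236), and its r turned to -0.52 without those mice, so that the relation rests on them. For Glra3, r was 0.69 (exact permutation p = 0.0839, adjusted 0.184), rho was 0.43 (p = 0.354) and r was 0.84 without the same mice. None of the 6 relations passed the adjustment, and no correlation was taken over the 5 EtOH mice.

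The glycine receptor alpha subunits held the only gene called. Glra3 (chromosome 8, 56393446 to 56583293, plus strand) and Glra2 (chromosome X, 163911666 to 164110678, minus strand) are the pair whose balance moved, and the bases just upstream of their annotated starts are shown for that reason. They are the 250 bases before the start in RefSeq on GRCm38.p6, an earlier build than that of the counts, at chr8:55940168-55940417 on the plus strand and chrX:165327394-165327643 on the minus strand. Capitals mark matches to the motifs described after them.
Glra3: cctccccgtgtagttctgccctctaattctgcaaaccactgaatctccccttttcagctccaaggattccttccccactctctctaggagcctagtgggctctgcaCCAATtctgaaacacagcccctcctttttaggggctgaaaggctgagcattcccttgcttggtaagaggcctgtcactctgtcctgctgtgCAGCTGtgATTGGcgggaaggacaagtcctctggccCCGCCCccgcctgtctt
Glra2: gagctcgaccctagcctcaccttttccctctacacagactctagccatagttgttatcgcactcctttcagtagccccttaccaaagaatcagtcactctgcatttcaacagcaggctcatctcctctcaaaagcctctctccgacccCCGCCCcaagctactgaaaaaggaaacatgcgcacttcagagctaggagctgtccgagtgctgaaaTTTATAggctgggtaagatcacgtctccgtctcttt

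Both strands were searched for 6 short motifs. The Glra3 window held 2 CCAAT matches, 1 E-box match (CANNTG) and 1 GC box match (GGGCGG), which overlap no other match. The Glra2 window held 1 GC box match and 1 TATAAA match, the latter 36 bases before the start. Over 32851 promoters of the same length, 33.8% held CCAAT, 66.2% an E-box, 32.7% a GC box and 12.4% TATAAA. Neither window held the cyclic AMP response element TGACGTCA or the AP-1 motif TGANTCA, which 1.55% and 6.75% of promoters held. The windows thus shared only the GC box among these motifs, and a match describes the letters alone.

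Glra3 rose in the EtOH mice. Its lowest value in the Control mice was 5.93, its median 8.73 and its highest value 10.2 CPM. In the EtOH mice it had 18.7, 9.67, 18.4, 17.8 and 14.4 CPM. All but EtOH mouse 2 lay above every Control mouse, and EtOH mouse 2 lay below Control mice 2 and 5, so the groups overlapped through that mouse alone. Over all genes tested, 10.1% had at least 4 of 5 EtOH mice above every Control mouse. Its Control mean of 8.46 ± 1.51 CPM (SD, n = 7) compared with an EtOH mean of 15.8 ± 3.83 CPM (SD, n = 5), which was 1.87-fold higher. The log2 fold change was 0.90 (standard error 0.15, 95% interval 0.60 to 1.20, edgeR adjusted p = 0.000417). These values rest on 185 to 418 counts per Control mouse and 311 to 806 counts per EtOH mouse. No exon of another annotated gene overlaps those of Glra3 or Glra2. The hippocampus and thalamus lists were higher in each EtOH mouse than in any Control mouse, EtOH mouse 2 having the highest hippocampus sum at 185 CPM, and the part of these differences in the rise of Glra3 was not tested.

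Glra2 had a lowest value of 8.98, a median of 13.1 and a highest value of 15.0 CPM in the Control mice. In the EtOH mice it had 10.6, 9.76, 16.2, 12.4 and 12.3 CPM. EtOH mouse 3 lay above the Control range, and the other 4 lay within it, all below the Control median. The log2 fold change was -0.03 (standard error 0.13, 95% interval -0.29 to 0.22, edgeR adjusted p = 0.880), an interval that holds shifts of either sign.

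The balance between these alpha subunits, taken as the ratio of their counts per kilobase within each mouse, separated the groups completely. Glra2 exceeded Glra3 by a ratio of 3.24 in the Control mice (range 2.56 to 3.74) and 1.71 in the EtOH mice (range 1.24 to 2.20). All 5 EtOH mice lay below every Control mouse, EtOH mouse 2 included, whose Glra2 and Glra3 were the lowest of its group. The mean log2 ratio was 1.69 ± 0.17 (SD, n = 7) and 0.78 ± 0.32 (SD, n = 5), a difference of -0.92. The exact permutation test gave p = 0.00126, which is the smallest that the splits of these mice can give, and 0.00379 adjusted over 3 ratios. This ratio shares its Glra3 values with the fold change above and is no independent measurement of it.

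Glra1 was hardly detected in either group. The Control mice held 4 to 16 counts each and 72 in all, and the EtOH mice held 4 to 11 counts each and 30 in all. The lowest, median and highest Control values were 0.128, 0.293 and 0.505 CPM, and the EtOH mice had 0.116, 0.124, 0.328, 0.182 and 0.122 CPM, where 3 counts correspond to between 0.0695 and 0.0962 CPM. Although 3 EtOH mice lay below every Control mouse, the difference in mean log2 CPM (prior count 2) of -0.65 did not pass (exact permutation test, two-sided, p = 0.0669). Glra1 thus stood close to the floor in this tissue, where hindbrain genes were nearly absent as well. Exons of a lncRNA on the opposite strand overlap Glra1, and it is not known whether the counting used strand.

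As shares of summed alpha subunit transcripts per kilobase, Glra2 made up 74.2 ± 2.45% (SD, n = 7) in the Control mice and 62.2 ± 5.05% (SD, n = 5) in the EtOH mice. Glra3 made up 23.0 ± 2.02% and 36.5 ± 5.25%, and Glra1 made up 2.82 ± 1.18% and 1.32 ± 0.431%. Glra2 therefore remained the most abundant alpha subunit per kilobase in every mouse, although in CPM without division by length Glra3 had the higher mean in the EtOH mice.

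**Figure D3:**
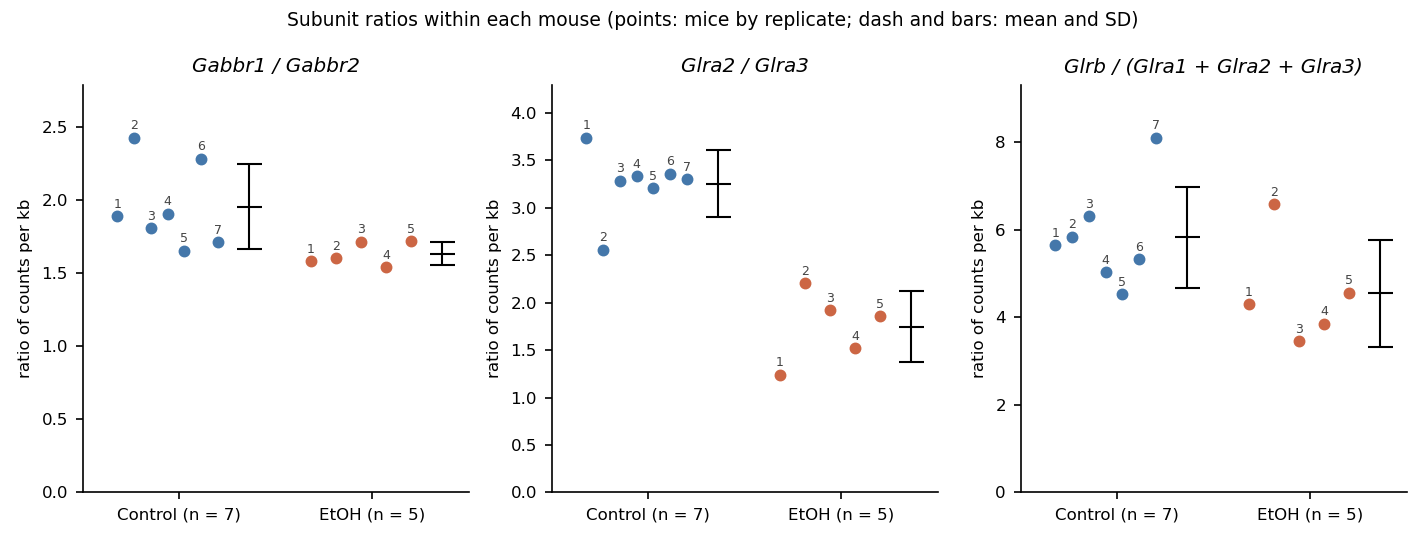
Ratios of counts per kilobase within each mouse (y axes, linear, starting at 0) for Gabbr1 over Gabbr2, Glra2 over Glra3, and Glrb over the sum of the alpha subunits, with mice numbered by replicate and mean and SD beside them. Only the Glra2 to Glra3 ratio separates all 5 EtOH mice (1.24 to 2.20) from all 7 Control mice (2.56 to 3.74).

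The beta subunit gene Glrb (chromosome 3, 80749136 to 80882860, minus strand) was slightly lower in the EtOH mice, below the fold minimum. The Control mice lay close together, with a lowest value of 231, a median of 244 and a highest value of 249.6 CPM. The EtOH mice had 211, 241, 220.2, 204 and 221 CPM. Of these, 4 lay below every Control mouse, whereas EtOH mouse 2 lay among the Control mice. The log2 fold change was -0.15 (standard error 0.05, 95% interval -0.24 to -0.05, edgeR adjusted p = 0.0343). The call at any fold was lost in 9 of 12 fits that each omitted 1 mouse, with adjusted p from 0.00907 to 0.0935 over all 12. At any fold, 11.6% of all genes tested were lower in the EtOH mice and 12.1% were higher. By that rule, 15 of 15 striatum, 4 of 4 olfactory bulb and 7 of 8 oligodendrocyte genes were lower. So were 5 of 10 inhibitory interneuron, 3 of 5 pan-neuronal and 3 of 6 microglia genes. In these lists, 1 interneuron and 1 pan-neuronal gene were higher, and of the hippocampus list 8 of 9 genes were higher. The part of these lists in the fall of Glrb was not tested. Set against the summed alpha subunits, Glrb had a ratio of 5.73 in the Control mice (range 4.52 to 8.10) and 4.43 in the EtOH mice (range 3.45 to 6.59), which overlapped. The mean log2 ratio differed by -0.37 and did not pass (exact permutation test, two-sided, p = 0.0657, the same after adjustment over 3 ratios).

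Gphn (chromosome 12, 78272504 to 78732541, plus strand) showed no difference past the test. The lowest Control value was 64.0, the median 70.8 and the highest 74.9 CPM, and the EtOH mice had 66.6, 71.5, 63.8, 61.7 and 67.5 CPM. The groups overlapped widely, with 2 EtOH mice just below the Control range and EtOH mouse 2 highest of its group. The log2 fold change was -0.06 (standard error 0.06, 95% interval -0.17 to 0.05, edgeR adjusted p = 0.456), an interval that does not reach the fold minimum on either side.

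EtOH mouse 2 was the EtOH mouse nearest to the Control mean for Glra3 and Glrb, and the highest of its group for Gphn. The same mouse had an oligodendrocyte list sum of 5306 CPM, where the other EtOH mice had between 2968 and 3695 CPM. Its striatum and hippocampus sums were those of its own group. Without it, the log2 fold change of Glra3 was 1.03 (edgeR adjusted p = 1.51e-05). What set this mouse apart was not tested.

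The genes that act with GABA-B receptors were followed through a list of 20 partners and effectors, all of which were tested. At the fold minimum 0 were higher and 2 were lower, or 10% of the list beside 8.29% of all genes, and the median log2 fold change was 0.09. Kctd8, whose product is an auxiliary subunit that shapes the response of the receptor, fell from a Control mean of 9.62 ± 1.04 CPM (SD, n = 7) to 6.01 ± 0.292 CPM (SD, n = 5), with all 5 EtOH mice below every Control mouse (log2 fold change -0.68, standard error 0.09, edgeR adjusted p = 3.6e-05). Gnb5, a G protein beta subunit that works with RGS proteins to end the signal, fell from a Control mean of 147 ± 17.7 CPM (SD, n = 7) to 98.7 ± 2.53 CPM (SD, n = 5), again with no overlap (log2 fold change -0.57, standard error 0.07, edgeR adjusted p = 2.6e-05). Kctd12, another auxiliary subunit, rose below the fold minimum (log2 fold change 0.32, edgeR adjusted p = 0.0139), opposite in direction to Kctd8. The striatum and inhibitory interneuron sums were lower in each EtOH mouse than in any Control mouse as well, and their part in the falls of Kctd8 and Gnb5 was not tested. Kcnj3, a subunit of the potassium channel that the receptor opens, did not pass, with a log2 difference of 0.18 (edgeR adjusted p = 0.0966).

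Of 10 genes for glycine supply and transport, 9 were tested, 0 were higher and 1 was lower, or 11.1% beside 8.29% of all genes. This was Slc32a1, which loads both GABA and glycine into vesicles and also marks inhibitory neurons, and it fell from a Control mean of 125 ± 19.3 CPM (SD, n = 7) to 73.6 ± 2.64 CPM (SD, n = 5) with no overlap (log2 fold change -0.77, standard error 0.09, edgeR adjusted p = 1.2e-05). It belongs to the inhibitory interneuron list as well, and so to its sum. That sum was lower in all 5 EtOH mice than in any Control mouse. At any fold, 5 of the 10 genes of that list were lower and 1 was higher, beside 11.6% and 12.1% of all genes. Adarb2 was higher (log2 fold change 0.43, edgeR adjusted p = 0.00675) and Lhx6 differed by 0.03 (edgeR adjusted p = 0.776). The striatum list was lower in 15 of 15 genes. The part of both lists in the fall of Slc32a1 was not tested. Slc6a9, the glial glycine transporter, had 26.6 CPM on average in the Control and 25.8 CPM in the EtOH mice (log2 fold change -0.05, edgeR adjusted p = 0.734). Slc6a5, the glycine transporter of glycinergic nerve terminals, was below the expression filter.

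At the gephyrin scaffold, 0 of 11 partners were called, beside 8.29% of all genes, and their median log2 fold change was -0.10. At any fold, 2 were higher and 2 were lower, beside 12.1% and 11.6% of all genes. Nlgn2, an adhesion protein of inhibitory synapses, had a value of -0.06 (edgeR adjusted p = 0.498). The 4 genes of molybdenum cofactor synthesis and use held 0 calls, with a median of -0.07. Neither gephyrin nor the genes around it thus showed a difference of the size seen for Glra3.

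**Figure D4:**
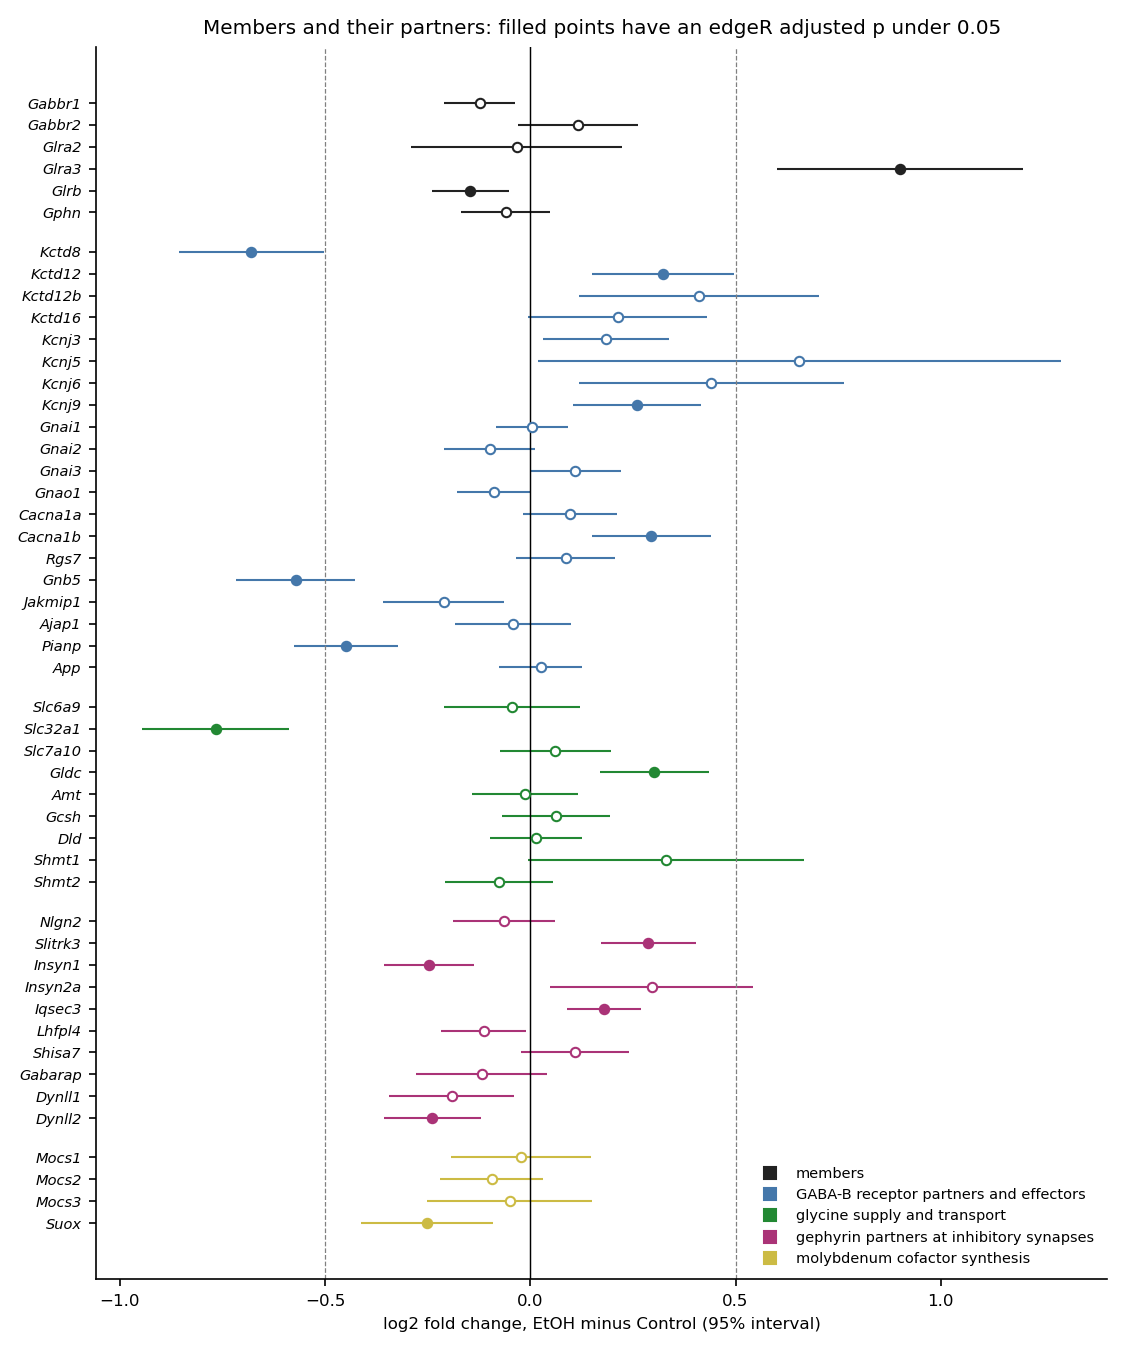
Log2 fold change, EtOH minus Control (x axis), with its 95% interval for the 6 genes tested and most of their listed partners, coloured by list, filled where the edgeR adjusted p is under 0.05, with dashed lines marking the fold minimum of 0.5 on each side. Glra3 is the only receptor gene past a dashed line with a filled point, at 0.90, whilst Kctd8, Gnb5 and Slc32a1 lie past the lower one.

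The genes whose values over the 12 mice ran closest to those of Glra3 and Glrb were found among 14170 genes by the root mean square difference in log2 CPM centred on each gene's mean. This measure includes the difference between the groups, so that similar fold changes follow from the selection and are no separate result. For Glra3, which itself deviated by 0.53 from its mean, these were Lypd1 (0.15), Ccn3 (0.16) and Hpcal1 (0.17), whose log2 fold changes were 0.90, 0.92 and 0.81. For Glrb, which deviated by 0.09, the nearest was Rbfox1 at 0.04, with a log2 fold change of -0.19. Next came 2510003B16Rik and Pomgnt1, also at 0.04, whose counts were identical in every mouse and which therefore count as 1 measurement.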

How the data were processed

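Total RNA of mouse cortex was extracted and sequenced by BGI (DNBSEQ). The authors checked reads with FastQC 0.11.9, aligned them with STAR to GRCm39 (Gencode Release 28), counted them with featureCounts and compared groups with DESeq2. They deposited expected counts per gene symbol, without normalization, of which 61 symbols are not whole numbers (0 of the 7 genes), and these were rounded. Settings for strand, read pairs and multi-mapping are not given in the sources used here. Of 44648 values from 1 to 10, 74.7% were even, so a count may be 1 read of a pair and the floor of 3 counts covers counting error only.

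Genes were kept with filterByExpr, scaled with TMM and tested with edgeR's quasi-likelihood test over all genes, with Benjamini-Hochberg adjustment (edgeR 4.0.16 and DESeq2 1.42.0 in R 4.3.3, with limma 3.58.1). A call needed an adjusted p under 0.05 together with a log2 difference of more than 0.5. The standard error is the log2 fold change divided by the square root of F, and intervals span 1.96 standard errors. The smallest chi-square per degree of freedom between libraries of a group was 7.76. Ratios and Glra1 were compared by exact permutation over mice. On simulated data for this comparison (16055 genes, 200 of them shifted by 1 on the log2 scale), edgeR recovered 173 with 3 false calls.

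The genes and lists were chosen with earlier results of these data known. All 7 genes are named. From the partner lists, genes called (at most 6 for each list and direction) and Slc6a9, Slc32a1, Nlgn2, Kctd12 and Kcnj3 are named (1 further gene of this rule is not reported here), with the 3 genes nearest to each receptor gene of adjusted p under 0.05, and at most 2 genes of a marker list, the Hox genes at 0 excepted. Gene positions and exon lengths are from Gencode release 39 of GRCm39. Exons of lncRNAs on the opposite strand overlap Gabbr1, Gabbr2, Glra1, Glrb and Gphn, and exons of other genes overlap Kctd8, Gnb5, Slc32a1, Slc6a9, Kctd12 and Kcnj3, whose counts are uncertain to that extent. Alternatives were DESeq2, limma voom, other scalings, filters and fold minimums, the replicate number as a block, other prior counts, ratios without exon length, and each mouse left out in turn. Ratios with the longest coding transcript as length were added after seeing the data.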

Additional observations from a re-analysis of the deposited data

Results flagged for a closer look

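Of 66 groups of values examined for a sample far from the others, 5 had one, where chance gives about 3.3. Control mouse 5 had the highest total count of its group, 40690226, with the next at 32356909, and EtOH mouse 1 the highest of its group, 42183031, with the next at 33313165. In the log2 ratio of Glra2 to Glra3, Control mouse 2 was lowest among the Control mice at 1.35, with the next at 1.68, and still above every EtOH mouse. The blood list summed to 128 CPM in Control mouse 6, with the next Control mouse at 21.0 CPM. The choroid plexus list summed to 985 CPM in EtOH mouse 3, with the next EtOH mouse at 275 CPM and the Control mice between 7.44 and 20.8 CPM.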

How the results depend on the processing

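The call of Glra3 held under every alternative with the fold minimum of 0.5, with log2 fold changes of 0.83 to 1.03 when each mouse was left out. With a fold minimum of 1, 0 of the 6 genes were called. Gabbr1 passed an adjusted p of 0.05 with DESeq2 (log2 fold change -0.12), limma voom (-0.12) and upper quartile factors (-0.13, adjusted p = 0.0480), and its values with 1 mouse left out ran from -0.14 to -0.10, passing without Control mouse 5 or 7. Glrb did not pass without a filter on low counts (-0.15, adjusted p = 0.0606), which left 1 gene past the threshold at any fold in place of 2, and it ranged from -0.19 to -0.12 with 1 mouse left out, when 1 to 3 genes passed at any fold. Glra2 changed sign, always close to 0, without Control mouse 4 (0.002), Control mouse 5 (0.008), EtOH mouse 1 (0.0189) or EtOH mouse 2 (0.0302), within a range of -0.15 to 0.03. Gabbr2 ranged from 0.07 to 0.14 and Gphn from -0.10 to -0.04, passing in none of these fits. The log2 difference of Glra1 ranged from -0.85 to -0.54, passing without Control mouse 7 or EtOH mouse 3. The ratio of Gabbr1 to Gabbr2 ranged from -0.29 to -0.19 with 1 mouse left out, and that of Glrb to the alpha subunits from -0.51 to -0.28, passing without Control mouse 5 or EtOH mouse 2. The latter also passed without division by exon length (-0.55, exact permutation test, p = 0.0253 adjusted over 3 ratios), where Glra3 weighs more. The cause of the other changes was not tested.

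Replicate numbers occur in both groups, but mice of the same number did not deviate together (correlations from -0.108 to 0.018 over 5 pairs). With the replicate block, Glra3 kept its call (0.80, adjusted p = 0.00607), Glrb did not pass (-0.15, adjusted p = 0.0993) and 1 gene passed at any fold. In the blocked sign-flip test over 5 pairs, whose smallest p is 0.0625, none of the 3 ratios passed: that of Gabbr1 to Gabbr2 differed by -0.24 and that of Glra2 to Glra3 by -0.90 (adjusted p = 0.188 each), and that of Glrb to the alpha subunits by -0.29 (adjusted p = 0.25).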

Other observations

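Some listed partners differed below the fold minimum, and they are named here after their values were seen. Around the GABA-B receptor, Cacna1b, the pore of the N-type calcium channel that the receptor inhibits, and Kcnj9, a subunit of its potassium channel, were higher (log2 fold changes 0.29 and 0.26, edgeR adjusted p = 0.00822 and 0.0247). Pianp, whose product binds the N-terminal part of the long Gabbr1 isoform, was lower at -0.45 (edgeR adjusted p = 8.5e-05). With Kctd12, Kctd8 and Gnb5, 3 of the 20 partners were thus higher and 3 lower at any fold, beside 12.1% and 11.6% of all genes tested. Gldc, the decarboxylase of the glycine cleavage system, was higher at 0.30 (edgeR adjusted p = 0.00376). Of the astrocyte list, 3 of 8 genes were higher and 1 was lower at any fold, and the log2 CPM averaged over its genes was higher in every EtOH mouse than in any Control mouse (means 7.31 and 7.16), whose part in this was not tested. Among gephyrin partners, the adhesion protein gene Slitrk3 was higher at 0.29 (edgeR adjusted p = 0.00200) and Iqsec3 at 0.18 (edgeR adjusted p = 0.00977). Insyn1 and Dynll2 were lower at -0.25 and -0.24 (edgeR adjusted p = 0.0043 and 0.00863). Suox, an enzyme that needs the molybdenum cofactor, was lower at -0.25 (edgeR adjusted p = 0.0331). Kcnj9, Pianp, Insyn1 and Iqsec3 share exonic bases with other annotated genes.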
